A study of Mus musculus with 6 samples.

Results

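Genes of protein processing in the endoplasmic reticulum (ER) were followed in white fat of ++Oxtr and wild-type (WT) mice. The members are the 170 genes, of 21959 rows in the deposited expression table, whose Pathway column contains ko04141, the KEGG entry of that name. They fell into 10 role classes: chaperones of the ER, disulfide isomerases, the translocon, glycan addition and trimming, cytosolic chaperones, the unfolded protein response, death and kinase signalling, the membrane part of ER-associated degradation, its cytosolic part, and the COPII coat of ER exit.

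Secreted and membrane proteins enter the ER as unfolded chains, receive glycans and disulfide bonds, and are held by chaperones until they fold. When unfolded protein accumulates, the sensors IRE1 (Ern1), PERK (Eif2ak3) and ATF6 start the unfolded protein response, which raises chaperone and degradation genes, while proteins that do not fold are pulled back to the cytosol and degraded by the proteasome. Adipocytes secrete large amounts of adiponectin and other hormones and so depend on this machinery.

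There were 3 libraries labelled WT (replicates 10, 11 and 12) and 3 labelled ++Oxtr (replicates 7, 8 and 9), all from white adipose tissue. The series text calls it gWAT, an abbreviation in common use for gonadal white adipose tissue. The construct behind ++Oxtr, its promoter, and the sex and age of the mice are not stated in the labels used here. Oxtr, the oxytocin receptor gene, ran from 22.0 to 61.4 CPM (counts scaled to a common library size) in WT and from 81.7 to 90.6 CPM in ++Oxtr, without overlap. Whether each library is its own animal is not stated in the labels, and p-values then measure only a spread among libraries that may be technical.

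Libraries held 14314517 to 19186696 counts. The 10 adipocyte markers summed to between 32592 and 40599 CPM in every library, and Adipoq, the adiponectin gene, ran from 2279 to 2820 CPM. Of these 10, 7 were on the lower side in ++Oxtr and 2 had an unadjusted edgeR p under 0.05, both lower: the lipid droplet genes Plin4 (log2 fold change -0.62, SE 0.18, groups without overlap) and Cidec (-0.46, SE 0.19). The DESeq2 adjusted p was 0.0287 for Plin4 and 0.279 for Cidec, and the edgeR adjusted p was 0.412 and 0.555. Lep, the leptin gene, ran from 217 to 666 CPM in WT and from 61.4 to 358 CPM in ++Oxtr. Some libraries stood apart for other cell types: a list of 14 genes of multiciliated epithelium summed to 143 CPM in ++Oxtr replicate 8 and to between 8.12 and 37.7 CPM in the other 5 libraries. Markers of T and natural killer cells summed to 57.1 CPM in ++Oxtr replicate 9 and to at most 25.2 CPM elsewhere. All 10 macrophage markers were on the lower side in ++Oxtr (summed level 1295 to 1531 CPM, against 1651 to 2043 CPM in WT). Of these, 6 had an unadjusted edgeR p under 0.05. Over all genes tested, 4.44% were higher and 4.47% lower at that p. The DESeq2 adjusted p was 0.00361 for Cd163, 0.0192 for C1qa and over 0.05 for the other macrophage markers. The edgeR adjusted p of Cd163 and C1qa was 0.347. Of 7 tested neutrophil markers 5 were on the higher side, 3 higher and 1 lower at an unadjusted edgeR p under 0.05, with summed levels of 30.4 to 60.9 CPM in WT and 39.1 to 65.8 CPM in ++Oxtr. The lower one, Mmp9, made up the largest part of the WT sums, at 38.0, 19.6 and 41.3 CPM, against 21.5, 20.7 and 15.6 CPM in ++Oxtr. The 3 higher ones were S100a8, S100a9 and Retnlg, at log2 fold changes of 1.37, 1.91 and 1.55, so the sums hide opposite changes. Plasma cells are rich in ER. The 5 of their listed markers in the table outside the pathway column summed to 58.8, 44.4 and 40.9 CPM in WT and 42.1, 22.8 and 96.1 CPM in ++Oxtr. Sdc1 and Jchain made up most of each sum, with Sdc1 at 25.2 to 28.2 CPM in WT and 18.6 to 28.6 CPM in ++Oxtr. Levels were most uneven for Jchain, at 2.50 CPM in ++Oxtr replicate 8 and 63.8 CPM in ++Oxtr replicate 9, while Mzb1 was at most 0.135 CPM. Derl3 and Xbp1 were also on this marker list but are pathway members and were left out of the sums. The part of these cells in the results below was not tested, and in such bulk samples fewer cells of a type and less RNA per cell cannot be told apart.

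Some members share stress motifs in their promoters. The motifs and the pathway list may rest on some of the same genes, so the shares below are a description only. The ER stress element (ERSE), which reads CCAAT, 9 bases of any kind and CCACG, searched on both strands from 250 bases before to 50 bases after the start site, is a site at which ATF6 is known to act together with NF-Y. RefSeq promoters on GRCm38.p6 were found for 143 of the 170 members. An ERSE match was held by 10 of them, 6.99%, against 0.137% of all 27025 genes with a promoter in that table. These letters include the shorter CCAAT box, and all motifs were searched on both strands. The sites below, in gene orientation with the match in capitals, are shown because they mark chaperone, isomerase and degradation genes described below. A match on the other strand reads CGTGG first. The Calr4 site belongs to a RefSeq start site that lies upstream of the GENCODE M21 gene, which begins at position 109234485 of chromosome 4.
Hspa5, chr2:34772020-34772048, plus strand: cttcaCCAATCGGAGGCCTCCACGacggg
Calr, chr8:84847070-84847098, minus strand: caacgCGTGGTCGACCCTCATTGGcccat
Canx, chr11:50325795-50325823, minus strand: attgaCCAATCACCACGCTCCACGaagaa
Dnajc3, chr14:118937822-118937850, plus strand: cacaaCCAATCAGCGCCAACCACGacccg
Calr4, chr4:109218233-109218261, plus strand: cagctCGTGGTCCCCAACCATTGGctgca
Pdia6, chr12:17266486-17266514, plus strand: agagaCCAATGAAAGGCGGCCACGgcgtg
Ero1b, chr13:12565677-12565705, plus strand: ggcctCGTGGTCCCGCCTCATTGGccgcc
Syvn1, chr19:6046527-6046555, plus strand: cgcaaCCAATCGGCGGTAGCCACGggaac
Derl3, chr10:75893237-75893265, plus strand: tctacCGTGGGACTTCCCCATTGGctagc
The promoter of Hsp90b1 held 2 matches, on opposite strands, and 140 bases of it are printed to show both. This stretch touches no gene of GENCODE M21.
Hsp90b1, chr10:86705525-86705664, minus strand: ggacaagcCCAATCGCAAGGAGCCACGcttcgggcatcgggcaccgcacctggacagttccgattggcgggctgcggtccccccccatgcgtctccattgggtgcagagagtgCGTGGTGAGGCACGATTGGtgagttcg

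Further stress motifs were rarer among the members. The related ERSE-II, which reads ATTGG, 1 base of any kind and CCACG, was found in the promoters of Dnajb11 and Herpud1, 1.40% of members, against 0.0444% of all genes. The element bound by XBP1 and ATF6, called UPRE and spelled TGACGTGG, was found in 6 members, 4.196%, against 0.714% of all genes. These were Mapk8, Sec23a, Sec24d, Txndc5, Ube2j1 and Vcp, with 4 on the lower side in ++Oxtr and 2 on the higher. Sites are printed below only for Ube2j1, Sec24d and Vcp, all on the lower side, so they do not stand for the whole set. The ATF4-type element TGATGCAA was found only in Herpud1 among members, 0.699%, against 1.03% of all genes. The heat shock element, searched as GAA, 2 bases of any kind, TTC, 2 more and GAA, was held by 4 members, 2.80%, against 0.662% of all genes, among them Hsph1. A match describes letters in these windows and is not evidence of binding.
Herpud1 (ERSE-II), chr8:94386368-94386396, plus strand: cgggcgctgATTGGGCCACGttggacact
Ube2j1 (UPRE), chr4:33031302-33031329, plus strand: gaagcgcccgCCACGTCAggccgacttc
Sec24d (UPRE), chr3:123267460-123267487, plus strand: cccgggcgccTGACGTGGcactagcaac
Vcp (UPRE), chr4:43000604-43000631, minus strand: tgcggccaatTGACGTGGcgttactagg

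Most members were well expressed in this fat. On the FPKM scale, which divides by gene length so that genes can be compared, the median of the 157 members that passed the filter on low counts was 13.9, against 5.21 for all 13566 genes tested. The cytosolic chaperone Hsp90ab1 was highest, at 365 ± 86.9 FPKM in WT and 358 ± 11.3 in ++Oxtr (SD, n = 3), followed by Hspa8, Bcap31, Calr and Bag1 at means over all libraries of 212, 186, 178 and 161 FPKM. Among disulfide isomerases P4hb led at 142 FPKM, and Hspa5 (BiP), the main ER chaperone, was at 133 FPKM. The sensors lay much lower: Atf6 was at 8.39, Eif2ak3 at 5.09 and Ern1 at 4.11 FPKM, while Xbp1, the transcription factor that IRE1 activates, was at 79.8 FPKM. P4hb and Hspa5 lie within the spread of the libraries, since Hspa5 was at 143 ± 22.0 FPKM in WT and P4hb at 151 ± 3.61 (SD, n = 3).

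By edgeR 0 of 157 members passed an adjusted p of 0.05, as did 0 of the 13566 genes tested (0%). At an unadjusted p under 0.05, 4 members were higher in ++Oxtr, 2.55% against 4.44% of all genes, and 7 were lower, 4.46% against 4.47% of all genes. DESeq2 passed 1 member higher (Bag1; 0.637% against 0.693% of all genes) and 2 lower (Atxn3 and Dnaja1; 1.27% against 0.708% of all genes) at an adjusted p of 0.05. The shares of members at an unadjusted p under 0.05 thus lay at or under the shares of all genes. On artificial counts DESeq2 made 44 calls among unchanged genes and edgeR 9, so the DESeq2 calls may include more false ones. The ++Oxtr libraries lay wholly above WT in 7 members, 4.46% against 7.43% of all genes, and wholly below in 18, 11.5% against 7.62% of all genes.

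Fitted values were small. The median log2 fold change (++Oxtr over WT) of the tested members was -0.045, against 0.0040 for all genes tested. On the lower side of 0 were 108 of 157 members, 68.8%, against 49.2% of all genes, and on the higher side 49, 31.2%, against 50.8% of all genes. The share of members on the higher side was 42.04% with upper quartile scaling, where that of all genes was 57.2%. It was 43.3% with limma-voom, against 50.6% of all genes, and 20.4% with limma on log2(FPKM + 0.5), against 41.3%. The ratio of the highest to the lowest library had a median of 1.24 over members and 1.45 over all genes. Members also had a higher median level, 13.9 FPKM against 5.21, and counting error is relatively smaller at higher counts. Neither this ratio nor the intervals that follow were compared at matched level. The 95% interval of the log2 fold change stayed inside a 1.5-fold change either way for 135 of 157 members, 86.0%, against 55.8% of all genes, and inside 2-fold for 148, 94.3%, against 77.3%. These intervals are not adjusted for the number of genes.

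**Figure D1:**
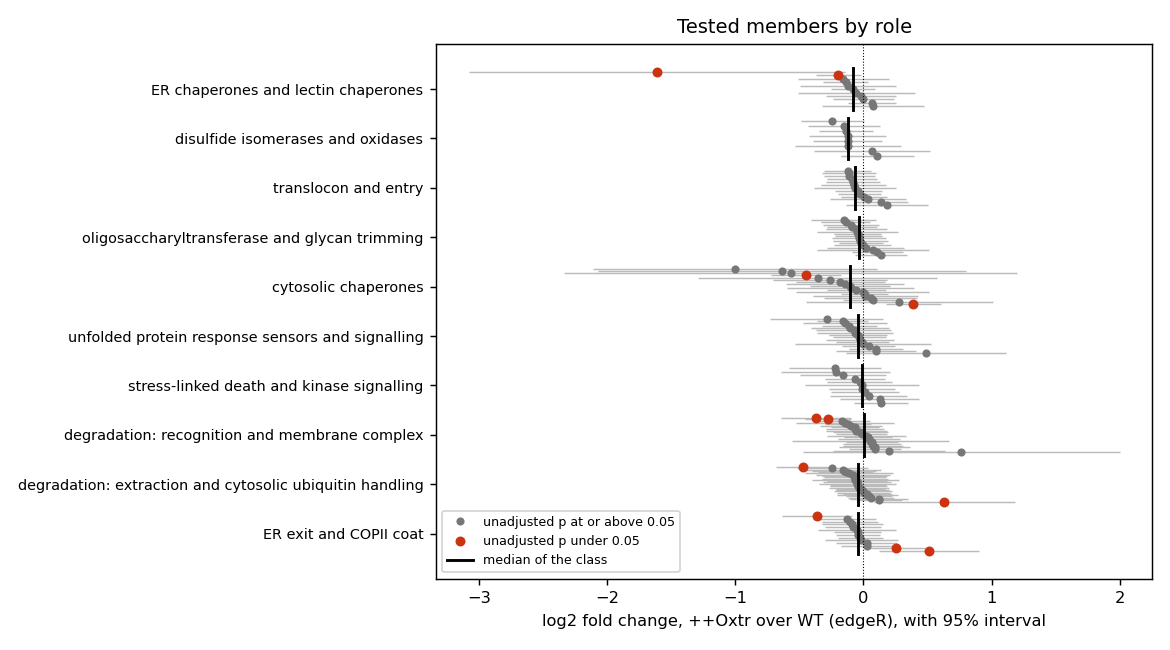
Log2 fold change of ++Oxtr over WT for each of the 157 tested members, grouped by role (horizontal axis, edgeR estimate with its 95% interval as a grey line; red points have an unadjusted p under 0.05; black bars mark class medians). Class medians lie between -0.124 and 0.0042, and the longest intervals belong to Hspa1a, Calr4, Hspa1b, Derl3 and Cryab.

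Chaperones of the ER hold new chains in the lumen. Of 11 tested, 9 were on the lower side, 0 higher and 2 lower at an unadjusted edgeR p under 0.05 (all genes: 4.44% and 4.47%). Their median log2 fold change was -0.084, which came to -0.00094 without ++Oxtr replicate 8 and -0.011 without WT replicate 10. Hspa5 (GRCm38 chromosome 2, 34771970 to 34777547, plus strand, protein coding) was at 710.2, 548 and 528 CPM in WT and 570.2, 457 and 573 CPM in ++Oxtr replicates 7, 8 and 9. The groups overlapped, with WT replicate 10 highest and ++Oxtr replicate 8 lowest. Its log2 fold change was -0.16 (SE 0.15; 95% interval -0.51 to 0.20; edgeR adjusted p = 0.798).

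Hsp90b1 (GRP94), the ER form of HSP90, was at 312, 222 and 242 CPM in WT and 276, 224 and 317 CPM in ++Oxtr, with a log2 fold change of 0.073 (SE 0.17). Its sign turned without WT replicate 11 or without ++Oxtr replicate 9, and its exons overlap a pseudogene on the other strand and a transcript, Gm15344, on its own. Calr, calreticulin, which holds glycoproteins, was at 607, 527 and 470.4 CPM in WT and 479, 408 and 591 CPM in ++Oxtr. Both genes overlapped between the groups. Hyou1, a nucleotide exchange factor for BiP, had a log2 fold change of -0.057 (SE 0.19), with WT replicate 10 highest at 118 CPM and WT replicate 11 lowest at 69.7 CPM, so that its whole range lay within WT. The sign of Hyou1 turned with limma-voom and without WT replicate 10 or ++Oxtr replicate 8.

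The members of this class with the smallest p were Dnajc1 and Calr4. Dnajc1, a membrane-bound J protein that stimulates BiP, was at 50.1, 51.8 and 49.8 CPM in WT and 44.8, 43.2 and 44.4 CPM in ++Oxtr, without overlap. Its log2 fold change was -0.20 (SE 0.075; edgeR adjusted p = 0.502), and its exons overlap Mllt10 on the other strand. Calr4, a calreticulin relative of low level, was covered by 16, 27 and 12 reads in the WT libraries and 8, 9 and 2 in the ++Oxtr libraries. The log2 fold change of Calr4 was -1.61 (SE 0.63; edgeR adjusted p = 0.512). Dnajc3 and Dnajc10, J proteins of the lumen chosen after their values were seen, also did not overlap, at log2 fold changes of -0.14 and -0.084. Canx, calnexin, the membrane-bound partner of calreticulin, also chosen after its values were seen, overlapped, at 341, 288 and 312 CPM in WT and 303, 278 and 348 CPM in ++Oxtr.

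Disulfide isomerases and their oxidases form and shuffle the bonds between cysteines. Of 8 tested, 6 were on the lower side and 0 had an unadjusted p under 0.05 in either direction, with a median of -0.12 that came to -0.032 without WT replicate 10. P4hb (protein disulfide isomerase, a coding gene on the minus strand of GRCm38 chromosome 11, 120560298 to 120573253) was at 431, 418 and 426 CPM in WT and 409, 392 and 361 CPM in ++Oxtr, without overlap. The log2 fold change of P4hb was -0.13 (SE 0.091; 95% interval -0.35 to 0.078; edgeR adjusted p = 0.696; exact permutation p = 0.1, the smallest that 3 against 3 libraries allow). The highest WT library was 1.03 times the lowest, so the WT spread was narrower than the gap between the group means, while the ++Oxtr libraries were spread more widely. Erp29, a chaperone with the isomerase fold, was at 75.0, 63.2 and 65.0 CPM in WT and 55.8, 52.7 and 63.1 CPM in ++Oxtr. Those groups were separated by less than 0.1 CPM, and the log2 fold change of Erp29 was -0.24 (SE 0.11; edgeR adjusted p = 0.561), with exons that overlap Naa25 and Tmem116 on the other strand. Pdia4 and Pdia6, isomerases known to rise with ER stress, differed by -0.12 (SE 0.18) and -0.15 (SE 0.12) in log2 fold change. The oxidase gene Ero1b, named after its values were seen, had a log2 fold change of 0.067 (SE 0.19). The sign of Pdia4 turned without WT replicate 10 or ++Oxtr replicate 8. For Pdia4 the highest library was WT replicate 10 at 144 CPM and the lowest ++Oxtr replicate 8 at 86.8 CPM.

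Unfolded protein response genes did not pass the test at either threshold: of 16 tested, 12 were on the lower side and 4 on the higher, 0 had an unadjusted edgeR p under 0.05, and the median was -0.040. Ern1 was at 33.5, 30.7 and 38.6 CPM in WT and 28.9, 33.3 and 36.0 CPM in ++Oxtr, a log2 fold change of -0.067 (SE 0.13). Eif2ak3 was at 29.9, 32.2 and 31.3 CPM in WT and 32.4, 30.1 and 28.0 CPM in ++Oxtr, a log2 fold change of -0.045 (SE 0.097). Atf6 had one of -0.029 (SE 0.11), with a 95% interval from -0.30 to 0.24. All 3 sensors overlapped between the groups, and each changed sign when some library was left out. Atf6b, the relative of Atf6, was at 46.0, 50.6 and 46.3 CPM in WT and 45.1, 41.1 and 41.3 CPM in ++Oxtr, without overlap (log2 fold change -0.16, SE 0.087; edgeR adjusted p = 0.630).

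Downstream of the sensors, Xbp1 was at 264, 244 and 244 CPM in WT and 262, 254 and 288 CPM in ++Oxtr, a log2 fold change of 0.097 (SE 0.090; 95% interval -0.11 to 0.31). IRE1 acts on Xbp1 by splicing its mRNA, which gene counts do not show. Atf4, translated when PERK is active, had a log2 fold change of -0.077 (SE 0.13), with a sign that turned without WT replicate 10 or ++Oxtr replicate 8. Its target Ddit3 (CHOP), a factor of ER stress-linked death, was at 12.3, 8.25 and 10.1 CPM in WT and 9.24, 7.50 and 8.36 CPM in ++Oxtr. For Ddit3 the log2 fold change was -0.29 (SE 0.19), and its exons overlap Mars on the other strand. Ppp1r15a (GADD34), which restores translation after stress, was at 19.0, 13.2 and 16.1 CPM in WT and 18.7, 17.0 and 32.1 CPM in ++Oxtr. Only ++Oxtr replicate 9 lay above the WT libraries, and the log2 fold change of 0.49 (SE 0.26) had an edgeR adjusted p of 0.638. Summed markers of T and natural killer cells, plasma cells, neutrophils, fibroblasts and endothelium were also highest in that library. Those of macrophages, adipocytes and the epithelia were not. The part of any of these cells in the Ppp1r15a value was not tested.

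**Figure D2:**
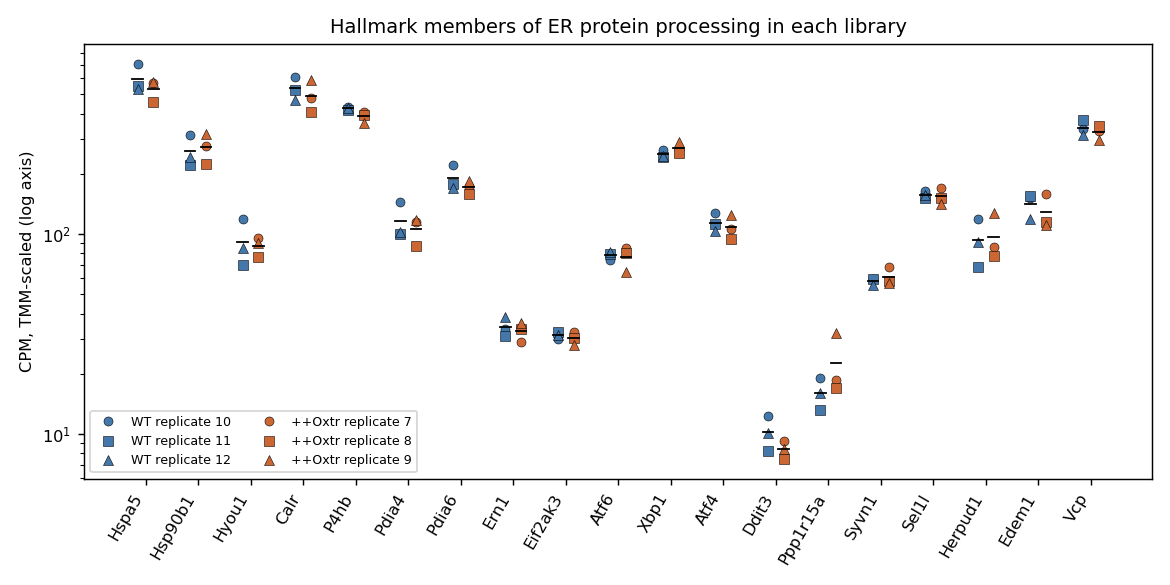
Level of 19 hallmark members in each library (vertical axis, CPM scaled with TMM factors, log axis; blue WT, orange ++Oxtr, symbols mark replicates, black bars are means of 3 libraries). The groups overlap in each gene except P4hb, where the 3 ++Oxtr libraries lie between 361 and 409 CPM, below WT at 418 to 431 CPM.

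Degradation genes at the ER membrane recognise misfolded proteins, move them back through the membrane and mark them with ubiquitin. Of 22 tested, 11 were on each side, 0 higher and 2 lower at an unadjusted edgeR p under 0.05 (all genes: 4.44% and 4.47%). Their median was 0.0042. That median was -0.038 with limma on log2(FPKM + 0.5), -0.0025 without the filter on low counts, and between -0.033 and 0.015 without single libraries. The core ligase pair was even: Syvn1 (HRD1) had a log2 fold change of 0.070 (SE 0.097), below 0 without ++Oxtr replicate 7, and its partner Sel1l one of -0.024 (SE 0.092), a sign that turned with limma-voom, with upper quartile scaling and without WT replicate 10 or ++Oxtr replicate 9. Herpud1, a stress-induced part of the ligase complex, was at 119, 68.3 and 91.6 CPM in WT and 85.6, 77.2 and 127 CPM in ++Oxtr. Its log2 fold change of 0.053 (SE 0.26) turned sign with limma-voom and without WT replicate 11 or ++Oxtr replicate 9. Edem1, which picks glycoproteins for degradation, had a log2 fold change of -0.14 (SE 0.16).

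The members here with the smallest p were 2 ubiquitin-conjugating enzymes. Ube2j1, anchored in the ER membrane (GRCm38 chromosome 4, 33031416 to 33052363, plus strand, protein coding), was at 104, 99.3 and 100.02 CPM in WT and 88.0, 80.2 and 81.9 CPM in ++Oxtr. Its log2 fold change was -0.28 (SE 0.076; edgeR adjusted p = 0.393; DESeq2 adjusted p = 0.165). Ube2g2 was at 54.5, 51.9 and 57.4 CPM in WT and 44.6, 35.6 and 46.5 CPM in ++Oxtr, a log2 fold change of -0.37 (SE 0.12; edgeR adjusted p = 0.451). Both were lower in each of the 3 ++Oxtr libraries than in any WT library. A second gene model on the same strand, Gm49325, shares exons with Ube2g2, so its reads may be split. Derl3, a derlin named after its values were seen, had the highest log2 fold change of the class, 0.76 (SE 0.53), but rested on 5 to 25 reads per WT library and 22 to 36 per ++Oxtr library.

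On the cytosolic side, Vcp and its partners pull proteins out of the membrane and hand them to the proteasome. Of 28 tested, 20 were on the lower side, 1 higher and 1 lower at an unadjusted edgeR p under 0.05 (all genes: 4.44% and 4.47%). Their median of -0.045 was 0.010 without WT replicate 11 and 0.012 without ++Oxtr replicate 9. Vcp itself was at 334, 373 and 314 CPM in WT and 329, 347 and 295 CPM in ++Oxtr, a log2 fold change of -0.071 (SE 0.11; 95% interval -0.32 to 0.18) whose sign turned without WT replicate 11.

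Atxn3, the ataxin-3 gene, a deubiquitinase that binds VCP (a coding gene on the minus strand of GRCm38 chromosome 12, 101918901 to 101958246), had the smallest p of all members. It was at 54.0, 63.0 and 58.7 CPM in WT and 43.1, 42.7 and 40.5 CPM in ++Oxtr, so that each ++Oxtr library lay below each WT library. The log2 fold change of Atxn3 was -0.47 (SE 0.088; 95% interval -0.68 to -0.27), with an edgeR adjusted p of 0.287 and a DESeq2 adjusted p of 0.0106. The DESeq2 call was lost without WT replicate 11 (adjusted p = 0.0866), WT replicate 12 (0.108), ++Oxtr replicate 8 (0.0806) or ++Oxtr replicate 9 (0.0550).

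The translocon admits new chains, and the oligosaccharyltransferase adds their glycans. Of 13 tested translocon and entry genes 9 were on the lower side, and of 16 glycan genes 12, with medians of -0.064 and -0.034. In both classes 0 had an unadjusted edgeR p under 0.05, and the glycan median was 0.0040 without WT replicate 10. Sec61a1, the channel itself, was at 99.9, 110.4 and 104 CPM in WT and 101.05, 107 and 98.1 CPM in ++Oxtr, and its log2 fold change of -0.040 (SE 0.080) turned sign without WT replicate 11. Ssr1 and Ssr4, subunits of the translocon-associated complex, differed by log2 values of -0.12 (SE 0.079) and 0.14 (SE 0.089). Among the transferase subunits Rpn1, Ddost and the catalytic Stt3b had log2 fold changes of -0.086 (SE 0.084), -0.14 (SE 0.083) and 0.14 (SE 0.087). Each of the 29 intervals of these classes stayed inside a 1.5-fold change.

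COPII proteins coat the vesicles that leave the ER. Of 14 tested genes 10 were on the lower side, and their median was -0.044. At an unadjusted edgeR p under 0.05, 2 were higher and 1 lower (all genes: 4.44% and 4.47%). Paralogs differed in side here. Sec24d, a cargo-binding subunit, was at 97.4, 84.6 and 86.2 CPM in WT and 80.2, 66.6 and 61.8 CPM in ++Oxtr (log2 fold change -0.36, SE 0.12; edgeR adjusted p = 0.459). Its paralog Sec24b, named after its values were seen, was at 112, 99.0 and 92.9 CPM in WT and 112, 124 and 126 CPM in ++Oxtr (log2 fold change 0.25, SE 0.099; edgeR adjusted p = 0.512). The ranges overlapped for Sec24b and not for Sec24d. Sec31b, an outer coat subunit, was at 14.6, 12.6 and 13.9 CPM in WT and 16.9, 17.4 and 24.1 CPM in ++Oxtr (log2 fold change 0.51, SE 0.17; edgeR adjusted p = 0.459), and shares exons with Gm20538 on the same strand. Sec13, found in all such coats, had a log2 fold change of -0.088 (SE 0.10), which turned sign without ++Oxtr replicate 9.

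In the class of death and kinase signalling, 7 of 11 tested genes were on the lower side and 0 had an unadjusted edgeR p under 0.05. The median was -0.011. It was 0.018 with upper quartile scaling, which also raised the median of all genes, from 0.0040 to 0.032. The anti-death gene Bcl2 had a log2 fold change of -0.22 (SE 0.18), and the calpain genes Capn1 and Capn2 had 0.14 (SE 0.090) and -0.22 (SE 0.15).

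Cytosolic chaperones differed more between libraries than any other class. Of 18 tested, 12 were on the lower side, 1 higher and 1 lower at an unadjusted edgeR p under 0.05 (all genes: 4.44% and 4.47%). Their median of -0.10 was 0.031 without WT replicate 10. The ratio of the highest to the lowest library had a median of 1.65 here and at most 1.41 in the other classes, and WT replicate 10 was the highest library in 10 of the 18 genes. The heat-inducible Hsph1 was at 138, 44.8 and 65.6 CPM in WT and 68.4, 63.5 and 62.4 CPM in ++Oxtr. Hspa1b, an inducible HSP70, was at 45.4, 9.77 and 13.7 CPM in WT and 14.8, 9.93 and 19.8 CPM in ++Oxtr. Its near-identical neighbour Hspa1a, with which reads may be shared, was at 11.97, 2.08 and 2.82 CPM in WT and 3.98, 1.78 and 5.67 CPM in ++Oxtr. These 3 genes were chosen after their values were seen, and in each of them WT replicates 10 and 11 lay further apart than any ++Oxtr libraries did. The constitutive Hspa8 was at 1219, 762 and 993 CPM in WT and 926, 695 and 858 CPM in ++Oxtr (log2 fold change -0.26, SE 0.19).

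Bag1 and Dnaja1, both partners of HSP70, differed by genotype without overlap. Bag1, a nucleotide exchange factor (a coding gene on the minus strand of GRCm38 chromosome 4, 40936398 to 40948294), was at 186, 204 and 175 CPM in WT and 236, 245 and 259.9 CPM in ++Oxtr. Its log2 fold change was 0.39 (SE 0.093; 95% interval 0.17 to 0.61; edgeR adjusted p = 0.348; DESeq2 adjusted p = 0.0212). Dnaja1, a J protein (GRCm38 chromosome 4, 40722150 to 40737149, plus strand, protein coding), was at 349, 285 and 292 CPM in WT and 243, 202 and 234 CPM in ++Oxtr. Its log2 fold change was -0.45 (SE 0.12; 95% interval -0.73 to -0.17; edgeR adjusted p = 0.378; DESeq2 adjusted p = 0.0482), and its exons overlap Smu1 on the other strand. Each ++Oxtr library lay above every WT library for Bag1 and below every WT library for Dnaja1. The DESeq2 call of Bag1 was kept only without WT replicate 11 (adjusted p = 0.00529) or ++Oxtr replicate 7 (0.0489), at 0.0915 to 0.178 without each other library. That of Dnaja1 was lost without any of the 6 libraries, at 0.0550 to 0.279. Cryab, the small heat shock protein alpha B-crystallin, named after its values were seen, was at 60.7, 71.3 and 36.9 CPM in WT and 13.5, 46.5 and 24.8 CPM in ++Oxtr, and overlapped (log2 fold change -0.999, SE 0.46; edgeR adjusted p = 0.586).

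**Figure D3:**
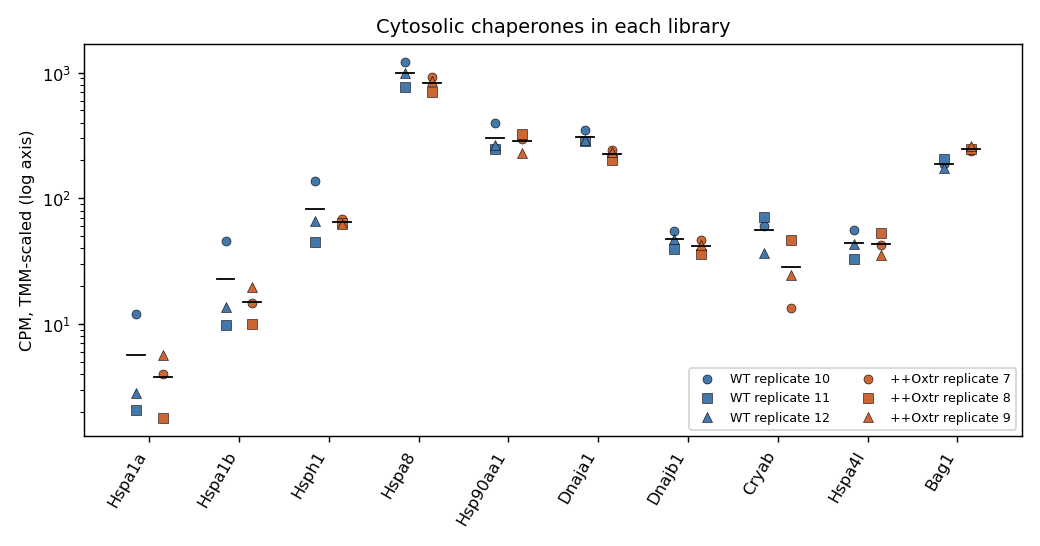
Level of 10 cytosolic chaperones and cochaperones in each library (vertical axis, TMM-scaled CPM, log axis; blue WT, orange ++Oxtr, black bars are means of 3 libraries). WT replicate 10 is highest for Hspa1a, Hspa1b, Hsph1 and Hspa8, while Bag1 and Dnaja1 separate the groups in opposite directions.

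The class medians in each library are set out next. In median log2 level around each gene's mean, cytosolic chaperones stood at 0.34 in WT replicate 10 and at -0.18 in WT replicate 11, and between -0.066 and 0.025 in ++Oxtr. Disulfide isomerases stood at 0.25 in WT replicate 10, the highest library in 6 of 8, and ER chaperones at 0.13. In ++Oxtr replicate 8 these last 2 classes stood at -0.13 each. Plasma cell markers also had their lowest sum, 22.8 CPM, in ++Oxtr replicate 8, and their second highest, 58.8 CPM, in WT replicate 10, after 96.1 CPM in ++Oxtr replicate 9, where ER chaperones stood at 0.041; their part in these medians was not tested. The cytosolic degradation genes were lowest in ++Oxtr replicate 9, at -0.13, and that library was the lowest in 16 of 28. In 2 of the 10 classes all 3 ++Oxtr medians lay below all 3 WT medians, by small gaps. Both were picked out for this pattern. Of all single genes tested 7.62% lay wholly below, and no such share is given for sets of other genes. For the translocon WT stood between 0.0017 and 0.054 and ++Oxtr between -0.038 and -0.0083, and for the unfolded protein response WT stood between 0.017 and 0.048 and ++Oxtr between -0.058 and 0.0059.

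**Figure D4:**
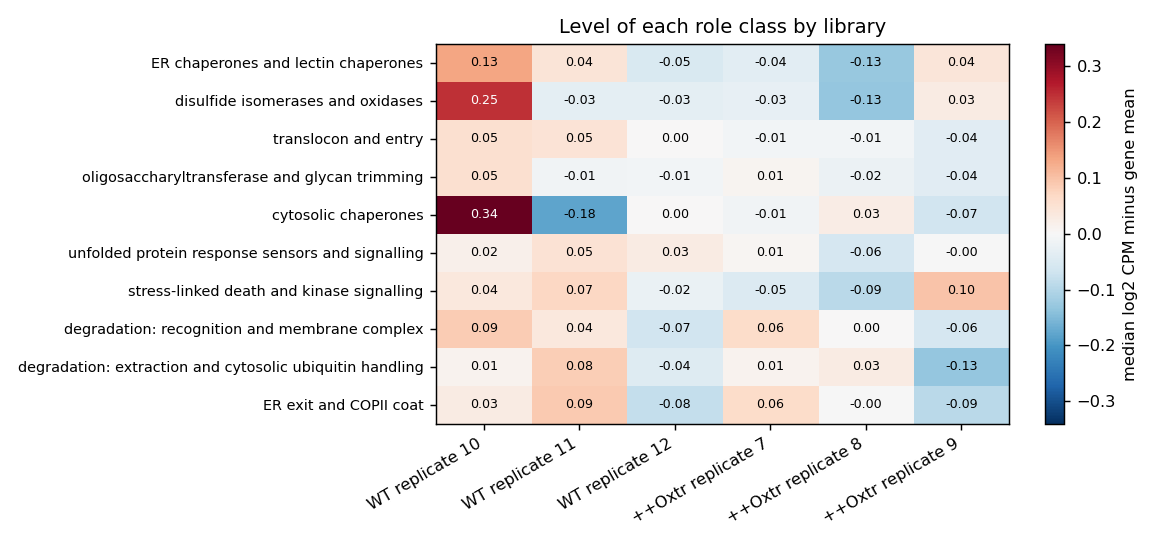
Median over the tested genes of each role class of log2 CPM minus the gene's mean over the 6 libraries (columns are libraries, rows are classes, red above and blue below the mean). The strongest cells are cytosolic chaperones and disulfide isomerases in WT replicate 10, at 0.34 and 0.25.

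The 10 members with an ERSE match followed the library pattern of the ER chaperones, to which 6 of them belong. Their median log2 level stood at 0.28 in WT replicate 10 and at -0.12 in ++Oxtr replicate 8, and WT replicate 10 was the highest library in 5 of 10. Between genotypes 6 were on the lower and 4 on the higher side. The median log2 fold change was -0.069, and Calr4 alone had an unadjusted edgeR p under 0.05. Of the 6 members with a UPRE match 4 were on the lower side, Ube2j1 and Sec24d with an unadjusted edgeR p under 0.05.

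Genes of the same responses outside the pathway column were read beside the members. Of 25 further targets of the unfolded protein response, 10 were on the higher side, 1 had an unadjusted edgeR p under 0.05 (higher) and 0 passed the adjusted threshold, with a median of -0.052. That gene was Asns, asparagine synthetase, a target of ATF4, at 59.4, 63.6 and 70.02 CPM in WT and 86.9, 81.1 and 133 CPM in ++Oxtr (log2 fold change 0.64, SE 0.19; edgeR adjusted p = 0.430). The chaperone partner Fkbp14 had a log2 fold change of -0.31 (SE 0.14; edgeR adjusted p = 0.561). Other ATF4 or CHOP targets of the list, chosen after their values were seen, lay on both sides. Atf3 had a log2 fold change of 0.67 (SE 0.69), Chac1 0.44 (SE 0.79) and Atf5 0.15 (SE 0.099), against -0.18 (SE 0.42) for Trib3 and -0.67 (SE 0.38) for Sesn2, and the groups overlapped in these 5 genes.

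Of 12 heat shock genes outside the column 5 were on the higher side, 2 higher and 1 lower at an unadjusted edgeR p under 0.05, with a median of -0.083. The higher genes were mitochondrial chaperones. Hspa9, the mitochondrial HSP70, was at 508, 603 and 553 CPM in WT and 696, 794 and 721 CPM in ++Oxtr. Its log2 fold change was 0.41 (SE 0.11; edgeR adjusted p = 0.380; DESeq2 adjusted p = 0.0216). Hspd1 (HSP60), named after its values were seen, had 0.24 (SE 0.095; edgeR adjusted p = 0.512; DESeq2 adjusted p = 0.292). Bag3, a cytosolic partner of HSP70, was at 79.1, 70.8 and 63.4 CPM in WT and 60.2, 52.4 and 57.8 CPM in ++Oxtr (log2 fold change -0.32, SE 0.11; edgeR adjusted p = 0.461; DESeq2 adjusted p = 0.315). The groups did not overlap in Hspa9, Hspd1 or Bag3.

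The 13 members left untested for low counts had few reads. Of these, 6 had 0 reads in every library, among them Dnajc5b, Dnajc5g, Sel1l2, Ube2dnl1 and Ube2dnl2. A count of 0 allows up to 3 counts, or 0.156 to 0.21 CPM in these libraries, which covers counting error only. Those with reads were Hspa1l with 3 to 16 reads per library, Mapk10 with 2 to 15, Fbxo2 with 1 to 9, Tram1l1 and Lman1l with at most 5, Cryaa with at most 4, and Ube2d2b with at most 1.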

How the data were processed

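Per the labels' protocols, Trizol-extracted RNA went through a NEBNext Ultra II kit. The authors deposited 1 table that holds, for each gene and library, raw counts of reads and FPKM values, per the file headers. FPKM equals count over gene length and column sum (largest relative error 4.35e-14). The submitters' processing notes name mm10. The aligner, counter and strand setting: not given in the sources used here, so overlapping genes cannot be told apart. Gene positions are from GENCODE M21 on GRCm38 (169 of 170 member identifiers matched).

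All rows were fitted with edgeR 4.0.16 in R 4.3.3: TMM, filterByExpr, robust quasi-likelihood F-test, no covariates, Benjamini-Hochberg over 13566 genes. CPM is TMM-scaled. DESeq2 1.42.0 and limma 3.58.1 were alternatives, with other scalings, filters, a threshold of 0.1 and each library left out. DESeq2 with libraries left out was chosen after seeing the data. Library profiles use log2(CPM + 0.1). Exact permutation tests cover 20 assignments. The fitting code was tested on artificial counts first, with 13407 genes. There DESeq2 made 44 calls among unchanged genes and edgeR 9. DESeq2 recovered 79% of the 2-fold changes and edgeR 70%. A DESeq2 adjusted p may therefore be less strict than its value states.

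Members and lists were chosen with earlier results of these data known. Members named by rule (42) were, per role class, the first listed and the 2 with the smallest p, 19 hallmark genes, and calls of either tool. From the unfolded protein response and heat shock lists outside the column the 2 with the smallest p were named. For the cell type lists this was not done throughout. Within a group, chi-square per degree of freedom between libraries was 18.2 to 50.7, so no library is a copy of another. Single values of some members are not reported here.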

Additional observations from a re-analysis of the deposited data

How the results depend on the processing

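No paired analysis was possible because replicate numbers 7 to 9 occur in ++Oxtr only and 10 to 12 in WT only. With edgeR, 0 members passed an adjusted p of 0.05 under both other scalings, both other filters, an adjusted p of 0.1 and each library left out, and 0 with limma-voom and with limma on log2(FPKM + 0.5), against 3 with DESeq2 and 4 higher and 7 lower at an unadjusted edgeR p under 0.05. Leaving out libraries in turn gave 2 to 4 higher (2 without WT replicate 11, WT replicate 12 or ++Oxtr replicate 9) and 4 to 7 lower (4 without WT replicate 10). The DESeq2 count of 3 was 0 to 3, namely 1 without WT replicate 10 (Atxn3) or WT replicate 11 (Bag1), 1 without ++Oxtr replicate 8 (Cryab, with none of the 3 kept), 0 without WT replicate 12 or ++Oxtr replicate 9, and 3 without ++Oxtr replicate 7 (Atxn3, Bag1 and Sec24d). The 49 members on the higher side were 32 with limma on log2(FPKM + 0.5). That setting, which has no TMM factors, moved the median of all genes from 0.0040 to -0.036, and class medians with it: the translocon to -0.11, glycan genes to -0.072, the unfolded protein response to -0.081 and death and kinase signalling to -0.056. Upper quartile scaling moved the median of all genes to 0.032 and the translocon to -0.037. Members above the median of all genes numbered 48, against 49 with FPKM and 48 with upper quartile scaling. Those settings shift all genes by a similar amount, so this count could hardly move under them. It was 68 with limma-voom and ran from 40 (without WT replicate 12) to 61 (without ++Oxtr replicate 8) without single libraries. Without single libraries the translocon median ran from -0.074 to -0.028 and that of death and kinase signalling from -0.050 to 0.0093. The cause of the changes without single libraries was not tested. Of the 42 named members, 29 kept their sign under every setting. With 3 libraries a group, 8 of 18 cytosolic chaperones had intervals inside 1.5-fold, so larger changes are not shut out for the rest.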
